A study of Mus musculus with 18 samples.

Results

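DNA replication and S-phase genes were examined in RAW264.7, an established line of mouse macrophages that divides in culture. The group holds 48 genes, chosen by name from textbook roles and with earlier results of these data known. The roles cover origin licensing, the replicative helicase, the polymerases and the sliding clamp. They also cover deoxynucleotide supply, the entry into S phase and the chromatin of newly made DNA. All values rest on a single table in which the authors deposited their calls between pairs of groups. Each row gives a fold change, a total FPKM and a q-value (a p-value adjusted by the authors). FPKM counts fragments relative to transcript length and library size. The total was read as the sum of both groups, which the labels do not state. Of the 48 genes 31 have at least 1 row between the groups used here, among 5455 named genes with such a row. The 31 genes are spread over 38 transcript entries and 243 rows. The other 17 genes have no row and are not shown to be unchanged, because a gene enters the table only when it changed 2-fold or more and its q was not above 0.05.

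Poly(A)-selected RNA was sequenced from 6 groups of 3 samples, and all cells were treated at about 80% confluency. Parental cells (labelled RAW) carry no construct and were left untreated or given doxycycline at 100 ng/mL. Construct cells (labelled p2080) are the same line transduced with a lentiviral pINDUCER20 vector in which doxycycline switches on mouse CITED1, a co-regulator of transcription. They were untreated, given doxycycline alone, given interferon-gamma alone at 200 U/mL, or given both. No parental group received interferon-gamma, and the labels give neither treatment times, nor whether the construct cells are a clone, nor whether samples of a group are separate cultures, so the authors' q-values may measure technical spread only. The induced gene was higher with doxycycline in construct cells: Cited1 had a deposited fold of 238.85 in unstimulated cells and 7.55 under interferon-gamma in the authors' deposited table. Of the 10 macrophage markers 5 have a row, and interferon-gamma alone raised 1 (Fcgr3). With doxycycline present 3 fell, among them Cd68, the lysosomal glycoprotein of macrophages, from 661 to 255 rebuilt FPKM. The 2 that rose were Fcgr3, from 44.7 to 221, and Spi1, from 151 to 350. Over all genes with a row 24.5% were called lower and 25.7% higher without doxycycline, and 34.0% and 33.7% with it. Adgre1 was 2.34-fold lower in unstimulated construct than parental cells, without and with doxycycline. None of the markers of T cells (5 genes), B cells (4), fibroblasts (5) or epithelium (4) has a row, which in a table of changed genes does not show that they are absent.

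Before a cell enters S phase, the origin recognition complex, CDC6 and CDT1 load the MCM helicase onto DNA, and CDC45 and the GINS complex then activate it. Primase and DNA polymerase alpha start each new strand, the clamp loader RFC places the PCNA clamp, and polymerases delta and epsilon extend the strands while enzymes of nucleotide metabolism supply thymidylate and the other deoxynucleotides. Many of these genes are known targets of E2F transcription factors, which are held back by proteins of the RB family, and their RNAs are abundant in dividing cells. Interferon-gamma is known to slow the proliferation of macrophages while it activates them.

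Levels are given as rebuilt FPKM: the total of a row, read as a sum, was split between its 2 groups in the proportion that the fold gives. The table has no value per sample, so a level has no SD, the sequencing depth behind it is unknown, and every call is the authors' own Cuffdiff call. Levels of the same gene and group rebuilt from several comparisons differed by at most 0.278% of their median over 171 such levels. Such agreement cannot tell a sum from a mean, so the absolute levels rest on that reading. Ratios between levels do not depend on it.

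The replication genes were lower with interferon-gamma. In construct cells without doxycycline 26 of the 48 genes fell and 1, E2f1, rose by the authors' deposited table. Among all 5455 genes with a row, this comparison called 24.5% lower and 25.7% higher. In construct cells with doxycycline 24 of the 48 genes fell and 0 rose, where 34.0% of all listed genes were called lower and 33.7% higher. These shares count genes with a row only, so the like base for the members is the 31 that have a row. The members were chosen with earlier results of these data known, so counts set beside these shares are a description only. The changes were of moderate size: the median fold of the members that fell was 2.73 without doxycycline and 2.69 with it in the authors' deposited table, beside 2.71 and 2.91 over all genes that fell. In bulk RNA a smaller share of cells in S phase and less RNA per cell cannot be told apart.

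**Figure D1:**
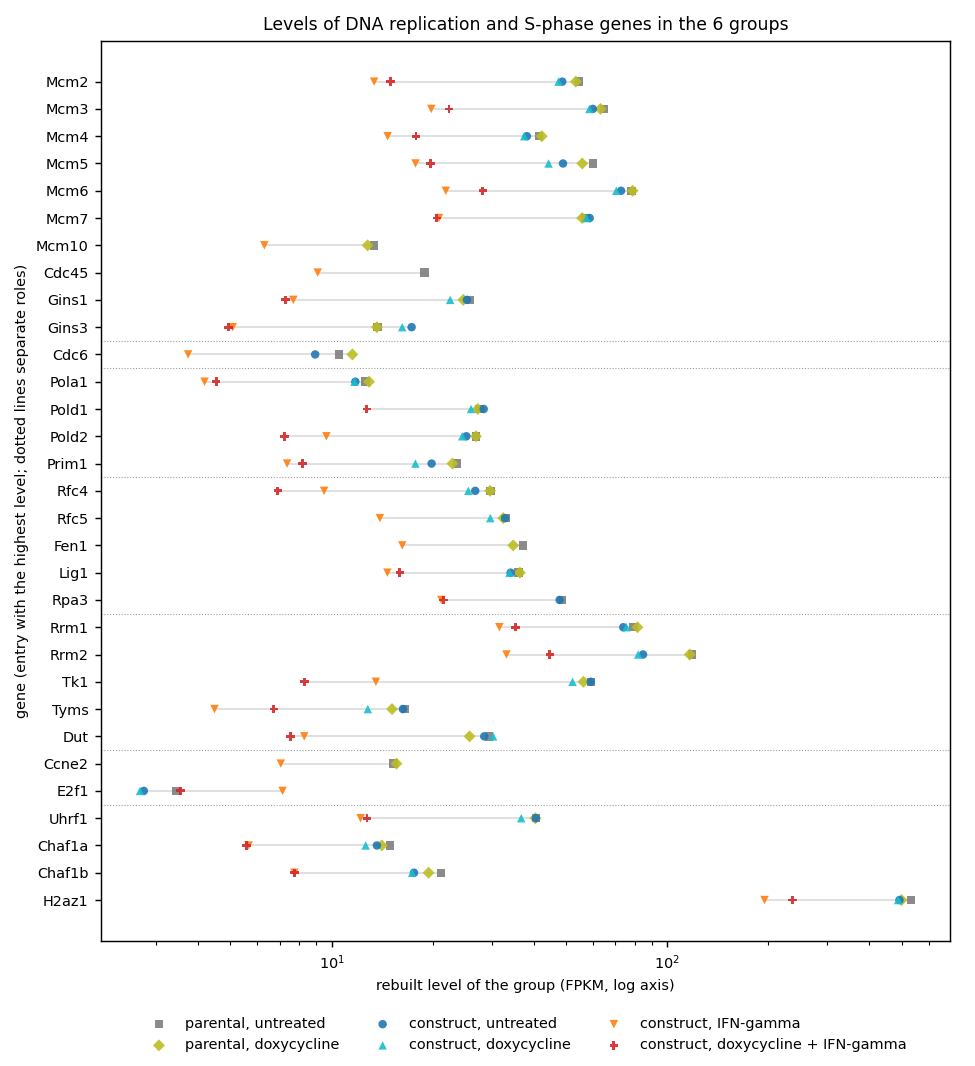
Rebuilt FPKM (log axis) of the 31 replication genes with a row, 1 symbol per group, for the entry of each gene with the highest level, with dotted lines between roles. Points have no error bar because the table has no value per sample, and a missing symbol means that no comparison gave that level. Where they are present, the symbols of the interferon-gamma groups lie left of those of the unstimulated groups for every gene except E2f1, whose highest level is that with interferon-gamma alone.

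Of the 38 entries 27, from 24 genes, have a level in all 6 groups. In these 27 entries both interferon-gamma levels were below all 4 unstimulated levels. Of the 243 member rows 242 compare an interferon-gamma group with an unstimulated group, each with a change of 2-fold or more. A level in all 6 groups comes from such rows. The gap between stimulated and unstimulated levels is thus largely set by the listing. The count describes listed entries and not all members. Among the 4 unstimulated groups the highest level exceeded the lowest by a median of 1.13-fold, with a range from 1.05-fold to 1.45-fold, the latter in Rrm2. The plot of levels by group shows this as a tight cluster of unstimulated groups to the right of the interferon-gamma groups.

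Promoters of the members were compared by their letters, since many of these genes are E2F targets. RefSeq promoter windows on GRCm38.p6 matched 40 of the 48 symbols, and Mcm4, Gins1, Gins2, Gins4, Pole, Prim2, Rfc2 and Ccne2 had no entry. The 250 bases before each start were searched on both strands for an E2F core (TTTCCCGC, TTTGGCGC, TTTCGCGC or TTTGCCGC) and for a CCAAT box (CCAAT). An E2F core lay before 9 of the 40 matched members (22.5%) and 7 of the 24 matched members that fell with interferon-gamma alone (29.2%). It lay before 4.23% of the 4135 matched genes with a row, before 6.52% of the 1043 matched genes that fell and before 2.16% of all 27025 genes in the promoter table. With the 50 bases after the start included, the shares were 37.5% of matched members (15 of 40), 4.98% of matched genes with a row and 2.605% of all genes in the promoter table. Shown here are the 3 members with an E2F core that had the largest deposited folds with interferon-gamma alone, 5′ to 3′ and read along the gene, with E2F cores and CCAAT boxes in capitals (ATTGG is CCAAT read on the other strand):
Gins3, chr8:95633309-95633558, plus strand: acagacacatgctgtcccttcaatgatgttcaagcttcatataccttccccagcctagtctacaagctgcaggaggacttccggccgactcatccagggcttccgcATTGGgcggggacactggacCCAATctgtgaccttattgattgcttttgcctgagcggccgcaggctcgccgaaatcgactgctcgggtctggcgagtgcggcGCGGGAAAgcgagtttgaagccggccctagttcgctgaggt
Uhrf1, chr17:56304063-56304312, plus strand: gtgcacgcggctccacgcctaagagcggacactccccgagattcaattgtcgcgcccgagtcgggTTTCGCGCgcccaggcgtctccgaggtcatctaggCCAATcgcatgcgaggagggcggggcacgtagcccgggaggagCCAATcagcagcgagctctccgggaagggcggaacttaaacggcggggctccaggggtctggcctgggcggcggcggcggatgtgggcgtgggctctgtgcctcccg
Mcm6, chr1:128359706-128359955, minus strand: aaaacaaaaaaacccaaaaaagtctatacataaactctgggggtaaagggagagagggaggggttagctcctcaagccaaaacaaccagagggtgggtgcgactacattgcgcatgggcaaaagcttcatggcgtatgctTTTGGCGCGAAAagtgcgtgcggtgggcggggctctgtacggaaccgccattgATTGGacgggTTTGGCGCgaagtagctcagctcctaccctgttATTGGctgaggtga
The window of Mcm6 has 3 matches to the core, of which 2 overlap on opposite strands, and those of Gins3 and Uhrf1 have 1 each. Each of the 3 windows has 2 CCAAT boxes, the motif bound by NF-Y. The CCAAT box was found in 62.5% of matched members, in 41.8% of matched genes with a row and in 37.5% of all genes of the promoter table. The other members with a core in this window were Cdc6, Mcm5, Mcm7, Pola1, Orc1 and Rfc3, and Orc1 and Rfc3 have no row. The cell cycle homology region TTTGAA was found in 15.0% of matched members against 18.3% of all genes, and its variant TTCGAA in 5.00% against 1.55%. A match is a run of letters and no measurement of binding. The members were chosen by replication roles that many E2F targets share, so a share above the background may follow from that choice. Its link with the response to interferon-gamma was not tested.

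The helicase was the largest set, with 8 of 12 genes lower with interferon-gamma both without and with doxycycline. Of these 12 genes 10 have a row, and 24.5% and 34.0% of all listed genes were called lower. All 6 subunits of the MCM ring, Mcm2 to Mcm7, fell in both comparisons. Per length, and with the entry of each subunit that has the highest level, they lay between 38.2 and 72.8 rebuilt FPKM in untreated construct cells, between 13.4 and 21.9 with interferon-gamma alone and between 15.0 and 28.2 with both treatments. For these entries the ranges with and without interferon-gamma did not overlap, and the lowest subunit in untreated parental cells stood at 41.5. Each of these entries is listed through changes of 2-fold or more with interferon-gamma, so this gap is largely set by the listing. Mcm5 has a second, smaller protein-coding entry (ENSMUST00000164309) that also fell in both comparisons, from 22.4 to 7.33 rebuilt FPKM with interferon-gamma alone, and its unstimulated levels lie below that of Mcm6 with both treatments.

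Mcm2 stood at 54.5 and 53.4 rebuilt FPKM in parental cells without and with doxycycline, at 48.7 and 47.4 in construct cells, at 13.4 with interferon-gamma alone and at 15.0 with both treatments. It had the largest deposited fold of the ring, 3.63 without doxycycline and 3.17 with it in the authors' deposited table. Mcm6, whose promoter is shown above, stood at 78.2 and 78.8 rebuilt FPKM in parental cells, at 72.8 and 70.5 in construct cells, at 21.9 with interferon-gamma alone and at 28.2 with both. For both genes the 4 unstimulated groups were high and the 2 stimulated groups low.

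Gins1 and Gins3 encode subunits of the GINS complex, which joins CDC45 and the MCM ring in the active helicase. Gins1 stood at 25.9 and 24.7 rebuilt FPKM in parental cells, 25.3 and 22.6 in construct cells, 7.70 with interferon-gamma alone and 7.30 with both. Gins3 stood at 13.7 and 13.7 rebuilt FPKM in parental cells, 17.3 and 16.2 in construct cells, 5.08 with interferon-gamma alone and 4.94 with both. Gins3 was among the 3 entries with a higher level in untreated construct than in untreated parental cells, without a row for that difference. Cdc45 and Mcm10, a factor that helps to start unwinding, have rows only against parental cells: Cdc45 stood at 18.9 rebuilt FPKM in untreated parental cells and 9.10 in construct cells with interferon-gamma alone, and Mcm10 at 13.4 and 6.31. Gins2 and Gins4 have no row.

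Of the 4 licensing genes only Cdc6 has a row. Its larger entry (ENSMUST00000093937) went from 8.94 rebuilt FPKM in untreated construct cells to 3.74 with interferon-gamma alone. The level of that entry with both treatments is not given by any row. Its smaller entry (ENSMUST00000092706) stood at 2.89 and 2.72 rebuilt FPKM in parental cells, 2.71 and 2.92 in construct cells, 0.849 with interferon-gamma alone and 1.05 with both. Both entries are protein coding, and the smaller one fell in both comparisons. Cdt1, Orc1 and Orc6 have no row.

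Of the 8 polymerase genes 4 have a row, and 3 fell without doxycycline and 4 with it, beside 24.5% and 34.0% of all listed genes called lower. Pola1, the catalytic subunit of polymerase alpha, went from 11.8 to 4.19 rebuilt FPKM without doxycycline and from 11.7 to 4.54 with it. Prim1, the catalytic primase subunit, went from 19.9 to 7.37 and from 17.8 to 8.18. Pold2, an accessory subunit of polymerase delta, went from 25.2 to 9.65 and from 24.5 to 7.25. All 3 of these genes fell in both comparisons. Pold1, its catalytic subunit, fell only where doxycycline was present, from 26.0 to 12.7 rebuilt FPKM, and its level with interferon-gamma alone is not given by any row. Its fold of 2.04 in the authors' deposited table is just inside the 2-fold limit. Pola2, Pole, Pole2 and Prim2 have no row, so nothing can be said here of polymerase epsilon.

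Of the 11 genes of the clamp, its loader, the lagging strand and the single-strand binding protein RPA, 5 have a row. All 5 fell without doxycycline and 3 with it, where 24.5% and 34.0% of all listed genes were called lower. Rfc4, a clamp loader subunit, stood at 29.8 and 29.7 rebuilt FPKM in parental cells, 26.8 and 25.6 in construct cells, 9.50 with interferon-gamma alone and 6.92 with both. Its q with interferon-gamma alone was 0.0266, among the weaker calls of the group in the authors' deposited table. Lig1, the ligase that joins Okazaki fragments, went from 34.2 to 14.7 rebuilt FPKM without doxycycline and from 33.9 to 16.0 with it. Rfc5 went from 32.9 to 13.9 and Rpa3, the small subunit of RPA, from 47.8 to 21.2 with interferon-gamma alone, and neither has a row for the comparison with doxycycline. For Rfc5 the level with both treatments, and for Rpa3 the level with doxycycline alone, is not given by any row.

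Fen1 encodes the flap nuclease that trims Okazaki fragments, and its 2 entries were not called in the same comparisons. The smaller entry (ENSMUST00000116542) stood at 16.6 and 13.7 rebuilt FPKM in parental cells, 13.0 and 13.5 in construct cells, 4.80 with interferon-gamma alone and 3.26 with both. The larger one (ENSMUST00000025651) has rows only against parental cells, at 37.2 rebuilt FPKM in untreated parental cells and 16.2 in construct cells with interferon-gamma alone. The fall of Fen1 in construct cells therefore rests on the smaller entry. Pcna, Rfc1, Rfc2, Rfc3, Rpa1 and Rpa2 have no row. A pseudogene copy, Pcna-ps2, does have one, and reads can be shared between Pcna and that copy.

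The largest falls of member entries with interferon-gamma alone were those of Tk1, a Dut entry and a Tyms entry, all of deoxynucleotide supply. Rrm1 and Rrm2 of the same set had deposited folds of 2.34 and 2.55, below the median of 2.73 of the members that fell. All 5 genes of the set fell with interferon-gamma alone, and 4 of 5 fell with doxycycline present, beside 24.5% and 34.0% of all listed genes called lower. Tk1, the thymidine kinase of the salvage pathway, stood at 59.2 and 56.3 rebuilt FPKM in parental cells, 59.2 and 52.2 in construct cells, 13.6 with interferon-gamma alone and 8.30 with both. Its fold of 4.37 without doxycycline and 6.29 with it, in the authors' deposited table, was the largest of all members in both comparisons.

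Dut encodes the enzyme that removes dUTP and makes dUMP, the substrate of thymidylate synthase. Its larger entry (ENSMUST00000082122) stood at 29.5 and 25.8 rebuilt FPKM in parental cells, 28.5 and 30.3 in construct cells, 8.29 with interferon-gamma alone and 7.56 with both. Its smaller entry (ENSMUST00000051605) stood at 23.9 and 23.7, 22.8 and 23.2, 5.40 and 4.34 rebuilt FPKM in the same order of groups. Both entries are protein coding and both fell in both comparisons.

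Tyms, thymidylate synthase, has 3 entries, of which ENSMUST00000026846 is annotated as protein coding, ENSMUST00000134298 as a retained intron and ENSMUST00000146520 as a target of nonsense-mediated decay. The coding entry stood at 9.16 and 9.45 rebuilt FPKM in parental cells, 8.0 and 7.78 in construct cells, 1.94 with interferon-gamma alone and 2.46 with both, and fell in both comparisons. The retained-intron entry had the highest level, 16.3 rebuilt FPKM in untreated construct cells, and went to 4.48 with interferon-gamma alone. With doxycycline present it stood at 12.8 rebuilt FPKM without and 6.73 with interferon-gamma, a ratio of 1.91-fold that has no row.

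Rrm1 and Rrm2 encode the large and the small subunit of ribonucleotide reductase. Rrm1 stood at 79.4 and 81.5 rebuilt FPKM in parental cells, 74.0 and 75.6 in construct cells, 31.6 with interferon-gamma alone and 35.3 with both. Rrm2 stood at 118 and 117 rebuilt FPKM in parental cells, 84.7 and 81.9 in construct cells, 33.2 with interferon-gamma alone and 44.7 with both. Rrm1 fell in both comparisons. Rrm2 fell with interferon-gamma alone, and with doxycycline present its ratio of 1.83-fold was just outside the limit of the table.

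Of the 4 regulators of S-phase entry 2 have a row, and 0 fell with interferon-gamma in construct cells, without or with doxycycline. Over all listed genes 24.5% and 34.0% were called lower. E2f1, a transcription factor that activates many replication genes, stood at 3.45 rebuilt FPKM in untreated parental cells, 2.76 and 2.69 in construct cells without and with doxycycline, 7.15 with interferon-gamma alone and 3.55 with both. Of these 5 groups the one with interferon-gamma alone stands apart, and no row gives the level in parental cells with doxycycline. The rise had a deposited fold of 2.59 and a q of 0.00209 in the authors' deposited table. It was not kept at 2-fold when levels were rescaled to a median log2 ratio of 0 over listed entries, a shift of 0.65 (log2 ratio 0.73 in place of 1.37). With doxycycline present, the log2 ratio for interferon-gamma was 0.40 and has no row, and under the same rescaling, here a shift of 1.02, it would be below 0. Ccne2, a cyclin that drives S-phase entry, has rows only against parental cells, at 15.3 rebuilt FPKM in untreated parental cells and 7.06 in construct cells with interferon-gamma alone. Ccne1 and E2f2 have no row.

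The 4 genes grouped here under the chromatin of replicated DNA, with H2az1 placed among them, all fell in both comparisons. Over all listed genes 24.5% and 34.0% were called lower. Uhrf1, which brings the maintenance methyltransferase DNMT1 to hemimethylated DNA, stood at 40.7 and 40.5 rebuilt FPKM in parental cells, 40.6 and 36.7 in construct cells, 12.2 with interferon-gamma alone and 12.8 with both. Chaf1a and Chaf1b, subunits of the histone chaperone CAF-1, went from 13.6 to 5.66 and from 17.6 to 7.75 rebuilt FPKM with interferon-gamma alone. H2az1, a histone H2A.Z gene, was the most abundant member per length, at 532 and 499 rebuilt FPKM in parental cells, 492 and 487 in construct cells, 195 with interferon-gamma alone and 236 with both. Its fold with doxycycline present, 2.06 in the authors' deposited table, was just inside the limit.

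**Figure D2:**
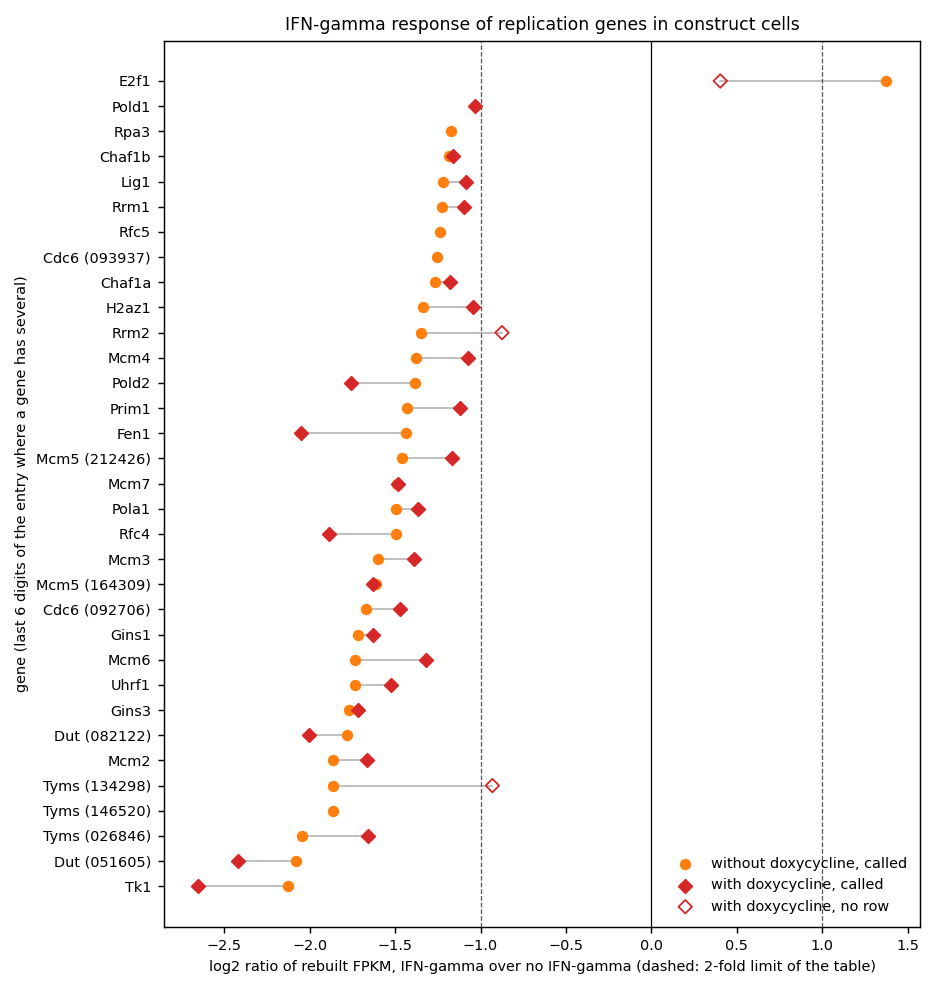
Log2 ratio of rebuilt FPKM (x axis) for interferon-gamma against no interferon-gamma in construct cells, per entry, without doxycycline (circles) and with it (diamonds), with open symbols where the deposited table has no row and dashed lines at its 2-fold limit. Tk1 lies furthest to the left, at -2.13 and -2.65, and E2f1 is the only entry right of 0, at 1.37 and 0.40.

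The responses to interferon-gamma without and with doxycycline share no samples. Of the members 23 fell in both, which is 88.5% of the 26 and 95.8% of the 24. Over all listed genes the 1082 genes that fell in both were 81.1% and 58.4% of the 2 sets of falls. Rfc5, Rpa3 and Rrm2 were called only without doxycycline and Pold1 only with it. Whether the response of any of these genes differed between the 2 settings was not tested, since the table has no value per sample.

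Against parental cells the construct cells with interferon-gamma showed the same side of the scale, in comparisons that share their stimulated samples with those above. Against untreated parental cells 29 members were lower and 1, E2f1, higher with interferon-gamma alone (26.5% of listed genes lower and 26.4% higher), and 26 lower and 0 higher with both treatments (35.3% lower and 34.0% higher). Against parental cells with doxycycline 27 and 25 members were lower (26.6% and 34.3% of listed genes) and 0 were higher (26.1% and 33.0%). The 3 genes called in these comparisons alone were Mcm10, Cdc45 and Ccne2. These comparisons also hold the difference between the lines.

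Induction of CITED1 by doxycycline under interferon-gamma was followed by 1 call among the members. No parental group received interferon-gamma, so doxycycline without the construct was not tested in this setting. E2f1 fell from 7.15 to 3.55 rebuilt FPKM, a fold of 2.01 with a q of 0.0332 in the authors' deposited table, and 0 members rose. In this comparison 6.34% of all listed genes were called lower and 6.84% higher. The call lies at the edge of the 2-fold limit, and it is lost at a q of 0.01 or less and with a pseudocount of 1 FPKM (log2 ratio -0.84 in place of -1.01).

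The other members have no row between these 2 groups, but levels rebuilt from other comparisons give their ratios as values without a test. For 29 entries both levels are known, and 18 had a log2 ratio above 0 and 11 below 0, with a median of 0.11. Over 4138 entries of all named genes 2252 were above 0 and 1884 below, with a median of 0.07. The lowest member entries after E2f1 were Tk1 at -0.71, Fen1 at -0.56, Rfc4 at -0.46, Pold2 at -0.41 and a Dut entry at -0.31. The highest were a Tyms entry at 0.59, Rrm2 at 0.43, Mcm6 at 0.37, Cdc6 at 0.31, and Mcm4 and H2az1 at 0.28 each. The members thus had ratios on both sides of 0 with CITED1 induced, including both sides within deoxynucleotide supply, where Tk1 and Dut were below 0 and Rrm1, Rrm2 and Tyms above it. Cited1 itself was also higher with interferon-gamma alone than in untreated construct cells, by 16.33-fold in the authors' deposited table, so the group without doxycycline is not free of it.

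**Figure D3:**
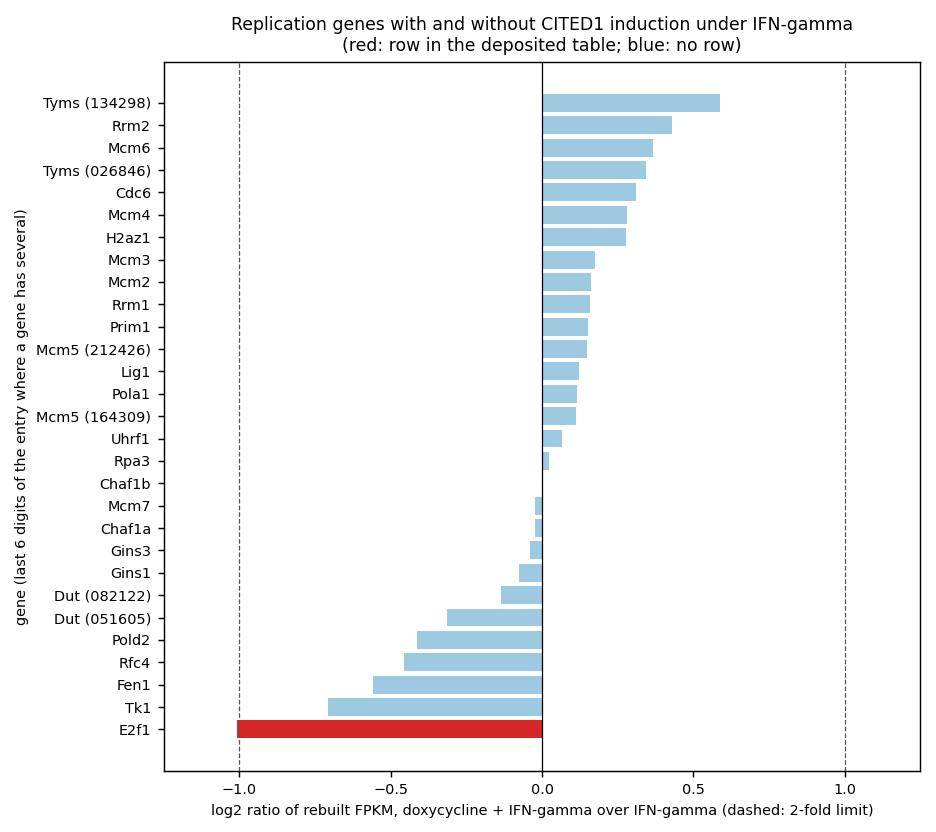
Log2 ratio of rebuilt FPKM (x axis) in construct cells with doxycycline and interferon-gamma over interferon-gamma alone, 1 bar per entry for the 29 entries with both levels, red where the deposited table has a row. Only E2f1, at -1.01, reaches the dashed 2-fold lines, and the other bars run from -0.71 for Tk1 to 0.59 for a Tyms entry.

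Without interferon-gamma no member was called. Doxycycline in parental cells had 0 of 48 members called by the authors' Cuffdiff table, where 0.788% of listed genes were lower and 0.11% higher. Doxycycline in unstimulated construct cells, which induces CITED1, had 0 of 48 (0.202% of listed genes in each direction). Untreated construct against untreated parental cells had 0 of 48 (2.77% lower, 1.72% higher), and the same comparison with doxycycline in both lines had 0 of 48 (3.17% lower, 2.44% higher). The table holds no unadjusted p-values, so no count at an unadjusted threshold can be given. With such low background shares a count of 0 is near what the listed genes as a whole show.

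Rebuilt levels put values on these 4 comparisons, again without a test. With doxycycline in parental cells the log2 ratios of 34 entries ran from -0.28 to 0.13 with a median of -0.03, and in unstimulated construct cells those of 30 entries ran from -0.35 to 0.13 with a median of -0.04. Between untreated construct and parental cells 30 of 33 member entries were below 0, beside 2483 of 4506 entries of all named genes. The member median was -0.10 beside -0.03, and the member range was -0.48 for Rrm2 to 0.34 for Gins3. With doxycycline in both lines 24 of 29 member entries were below 0, beside 2396 of 4427. The member median was -0.13 beside -0.03, and members ran from -0.51 for Rrm2 to 0.25 for Gins3. Entries of the same gene are counted separately. All these member ratios are within 1.5-fold of equal levels.

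The wider pathway was described with lists of other replication, nucleotide, checkpoint and cell cycle genes. They were written from textbook knowledge, with earlier results of these data known. Of 159 such genes, mitotic genes left out, 96 have a row. With interferon-gamma alone 71 fell and 5 rose, while 69 fell and 4 rose with doxycycline present. Over all genes with a row, also for the lists below, 24.5% were called lower and 25.7% higher, then 34.0% and 33.7%. Those that rose with interferon-gamma alone were Cdkn1a, which encodes the inhibitor p21, Impdh1, Mcmbp, Atrip and E2f3. Those that rose with doxycycline present were Dck, a salvage kinase for deoxycytidine, Ccnd3, Atrip and Wapl. When CITED1 was induced under interferon-gamma, 1 of the 159 genes fell (Cdca7l) and 1 rose (Timeless), where 6.34% of all listed genes were called lower and 6.84% higher.

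Other origin genes had 7 of 15 lower and 1 higher without doxycycline and 8 of 15 lower and 0 higher with it, among them Cdc7 and Dbf4, the kinase and its activator that fire origins (Cdc7 from 3.99 to 1.43 and Dbf4 from 17.6 to 6.58 rebuilt FPKM without doxycycline). Other fork genes had 11 of 20 lower and 0 higher in each comparison, with Chtf18 from 3.01 to 0.696 and Pclaf, a PCNA-binding factor, from 86.6 to 25.2 rebuilt FPKM without doxycycline. Timeless, a fork protection factor, was higher with CITED1 induced under interferon-gamma, from 3.12 to 7.35 rebuilt FPKM with a q of 0.0343 in the authors' deposited table.

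Other nucleotide synthesis genes had 11 of 24 lower and 1 higher in each comparison. Mthfd1, a folate enzyme, went from 30.7 to 7.51 rebuilt FPKM without doxycycline and from 31.0 to 5.43 with it, and Cad, which starts pyrimidine synthesis, from 31.3 to 8.13 and from 29.4 to 4.87. Dck, the gene that rose with doxycycline present, went from 49.1 to 138 rebuilt FPKM. Of the other chromatin genes 10 of 17 were lower without doxycycline and 7 of 17 with it, and none was higher. Cdca7, which works with the remodeller HELLS, went from 26.5 to 2.85 and from 23.3 to 1.83 rebuilt FPKM, a larger fall than that of any of the 31 members with a row. Cdca7l also fell with CITED1 induced under interferon-gamma, from 10.1 to 3.93 rebuilt FPKM.

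The E2F and RB list also holds Mybl2 and Myc, so its counts are not those of the E2F and RB families alone. Of its 17 genes 9 have a row, and Mybl2 was among the falls in both comparisons. Without doxycycline 4 fell and 1 rose, and with it 4 fell and 0 rose. Over all listed genes 24.5% and 34.0% were called lower. Tfdp1 and Tfdp2, the partners with which E2F proteins bind DNA, both fell without doxycycline, Tfdp1 from 67.0 to 20.6 and Tfdp2 from 2.84 to 0.458 rebuilt FPKM. E2f3, which like E2f1 activates S-phase genes, went from 1.81 to 3.88 rebuilt FPKM, and E2f8, a repressor, from 9.41 to 3.68. In the cyclin and CDK list 11 of 19 genes have a row, and 6 were lower and 1 higher in each comparison, beside 24.5% and 34.0% of all listed genes called lower. Cyclin A2 (Ccna2) and Skp2, which targets CDK inhibitors for degradation, were among the falls (Skp2 from 19.7 to 4.78 rebuilt FPKM without doxycycline).

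Checkpoint and recombination genes had 19 of 36 lower and 1 higher without doxycycline and 20 of 36 lower and 1 higher with it. Exo1, a nuclease of mismatch repair, went from 2.71 to 0.561 and Chek1, the kinase of the replication checkpoint, from 6.73 to 1.85 rebuilt FPKM without doxycycline. Of the 12 cohesin genes 6 have a row, with 4 lower and 0 higher, then 3 lower and 1 higher, beside 24.5% and 34.0% of all listed genes called lower. The falls include Esco2, the acetyltransferase of S-phase cohesion, from 13.5 to 3.76 rebuilt FPKM without doxycycline. Mitotic genes had 41 of 44 lower without doxycycline and 42 of 44 with it, with a median fold of 3.09 and 3.27 in the authors' deposited table. All 44 mitotic genes have a row, against 31 of the 48 replication genes. The lists were written with earlier results of these data known. This difference can therefore not be read as one between mitosis and replication, and it was not tested.

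**Figure D4:**
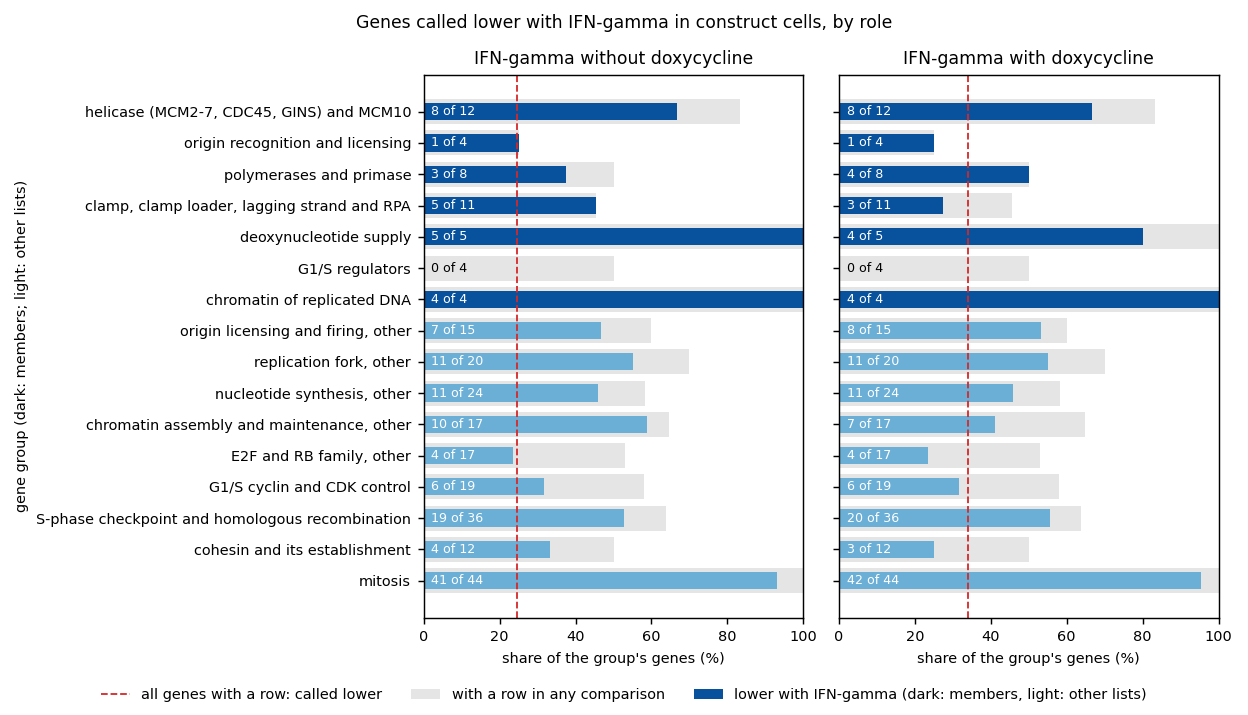
Share of each gene group (x axis, percent) called lower with interferon-gamma in construct cells without (left) and with doxycycline (right), with member roles in dark and other lists in light blue, grey bars for genes with a row in any comparison and a dashed red line at the share of all listed genes called lower (24.5% and 34.0%). Deoxynucleotide supply (5 of 5 and 4 of 5), replicated chromatin (4 of 4 in both) and mitosis (41 and 42 of 44) have the longest bars, and regulators of S-phase entry have none (0 of 4). Bars are shares of all genes of a group, with or without a row, while the line is a share of genes with a row.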

How the data were processed

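Directional libraries of poly(A) RNA were sequenced for 18 samples in 6 groups, per the labels' protocols. Tools in the submitters' processing notes are Cuffdiff 2.2.1, edgeR, featureCounts, STAR 2.5.3a and FastQC 0.11.5, with no roles; the build is "not given in the sources used here". What was deposited holds the authors' fold change as a linear ratio, a total FPKM read as the sum of both groups, and the authors' q-value (an adjusted p-value). Of 112230 rows, 77406 name another group and were not used, which left 34824. Their smallest fold was 2 and largest q 0.0499. Depth per sample is unknown, and no interval can be given.

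The lower level of a pair was taken as the total over 1 + fold and the higher one as the remainder, with the median over comparisons, in pandas 2.3.3. A gene counted in a direction when none of its called entries went the other way, and list values are those of the called entry with the highest total. Members were matched by exact gene name, locus tags were dropped from other names, and transcript types were taken from GENCODE M21. All members with a row could be named, and of each other list the up to 4 called genes with the largest fold; the genes that rose in the other lists were named after their values were seen. The foreseen limma test could not be used without values per sample. Alternatives were a q of 0.01, a minimum of 1 FPKM, a pseudocount of 1 FPKM, rescaling and the highest entry only. The rebuilding was tested on simulated data, in which the total was a sum by construction. The members and lists were chosen with earlier results of these data known.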

Additional observations from a re-analysis of the deposited data

How the results depend on the processing

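The counts of members that fell with interferon-gamma kept within 1.5 times of the stated ones under all 5 alternatives: 24 to 26 without doxycycline and 21 to 25 with it. At a q of 0.01 or less Rfc4 and Fen1 were lost without doxycycline. With only the highest entry of each gene Fen1 was lost in both comparisons, and Cdc6 and Tyms with doxycycline present. With a pseudocount of 1 FPKM Cdc6 and Pold1 were lost with doxycycline present. Rescaling shifted log2 ratios by 0.65 without doxycycline and by 1.02 with it, added Rrm2 to the falls with doxycycline present and left 0 members that rose without it. Since only 4.90% and 2.01% of entries had a log2 ratio within 0.5 of 0, those medians fall between genes changed in either direction. The fall of E2f1 with CITED1 induced under interferon-gamma was lost, to 0 members, at a q of 0.01 or less and with the pseudocount. No paired analysis was possible because the table has no value per sample, and for the same reason leaving out samples in turn was not run. The other comparisons had 0 members under all alternatives. With 50 more bases after the start the share of promoters with an E2F core went from 22.5% to 37.5% of all matched members, over 1.5 times, and from 25.0% to 35.7% of those with a row.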
